A study of Mus musculus with 4 samples.

Results

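Myc, Mycn, Max and Mga, 4 genes of the MYC and MAX network of transcription factors, were followed by all of their probes on 4 Illumina bead arrays of OG2 mouse embryonic stem (ES) cells. The probe annotation of the array gave 6 of 25697 probes to these genes: 2 to Myc, 1 to Mycn, 2 to Max and 1 to Mga. OG2 cells carry a green fluorescent protein transgene under control of Pou5f1 (Oct4). Before the experiment all cells were kept without feeders on gelatin, in KSR medium that held leukaemia inhibitory factor (LIF, 1000 U/ml), PD0325901 (1 µM) and CHIR99021 (3 µM). LIF signals through JAK kinases to STAT3, PD0325901 blocks MEK, the kinase that activates ERK, and CHIR99021 blocks GSK3. The medium was then exchanged for 12 h. One culture received fibroblast growth factor 2 (FGF2, 10 ng/ml) with JAK inhibitor I (1 µM), one FGF2 (10 ng/ml) with LIF, one PD0325901 with JAK inhibitor I (1 µM), and one PD0325901 with LIF. CHIR99021 is not named for the 4 final media, and for those media the labels give no dose of PD0325901 or LIF. Each condition was measured on 1 array, so no difference below has a replicate check. Adding FGF2 and withdrawing PD0325901 cannot be told apart, nor can adding the JAK inhibitor and withdrawing LIF.

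MYC proteins bind DNA only as dimers with MAX, through a basic helix-loop-helix leucine zipper, at E-box sites of which CACGTG is the best known. MYC and its relative MYCN activate genes of growth, ribosome production, metabolism and the cell cycle, while MXD proteins and MNT compete with them for MAX. MGA is another partner of MAX, which also carries a T-box and joins MAX to PRC1.6, a Polycomb complex that keeps germ cell genes silent in mouse ES cells. In these cells LIF and STAT3 are known to sustain Myc transcription, Myc is also a classical early target of growth factor and ERK signalling, and GSK3 marks the MYC protein for destruction. Arrays measure RNA only.

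A probe was called detected where its deposited detection p-value, the share of negative control beads as bright as the probe, was below 0.01. Between 10626 and 10927 probes were detected per array. The 8 ES cell markers examined, among them Pou5f1, Sox2 and Nanog, were detected on every array. The switches were visible in known targets. Egr1, an early ERK target, rose with FGF2 over PD0325901, by 10.3-fold beside LIF and by at least 14.8-fold beside the JAK inhibitor, where the PD0325901 array did not detect it (adjusted p = 0.000787 for the mean in the limma fit described with Myc). Dusp6, a phosphatase that dampens ERK, rose by 1.503 ± 0.16 on the log2 scale (mean ± SE, adjusted p = 0.0116). Spry4, another ERK feedback gene, stood at 1.38 and missed the test (adjusted p = 0.108). With the JAK inhibitor in place of LIF, Socs3, the feedback inhibitor of JAK signalling, fell by 4.34 on the log2 scale (adjusted p = 2.43e-05 in the same limma fit), and Stat3 itself fell by 1.71 (adjusted p = 0.00458). Bcl3, a STAT3 target not detected on either array with the inhibitor, was at least 8.27-fold lower there (adjusted p = 0.000106 for the measured values).

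Of the 4 genes, Max was bright on every array, Myc and Mga were near the limit of detection, and Mycn was not detected on any array. Myc and Mga had higher signals with FGF2 than with PD0325901, Mga mainly beside LIF. No gene of the 4 passed the test for either factor. Signals below are the deposited mean bead intensities with the bead standard error, which covers the beads of 1 array only. Log2 levels are after background correction and quantile normalization, and the error given with them is the bead error carried to that scale.

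Myc, the founding member of the family, was read by 2 probes of which only ILMN_2623526 gave a signal above background. Its intensity was 125.1 ± 5.84 with FGF2 and the JAK inhibitor, 105.9 ± 3.65 with FGF2 and LIF, 84.3 ± 2.29 in PD0325901 and the JAK inhibitor, and 93.0 ± 3.34 with PD0325901 and LIF. Both FGF2 arrays were above both PD0325901 arrays. The probe was not detected with PD0325901 and the JAK inhibitor (detection p-value of 0.0388), and with PD0325901 and LIF it passed narrowly (detection p-value of 0.00877). On the normalized log2 scale the levels were 5.61 ± 0.14 with FGF2 and the JAK inhibitor, 5.29 ± 0.13 with FGF2 and LIF, 4.67 ± 0.13 in PD0325901 and the JAK inhibitor, and 4.87 ± 0.18 with PD0325901 and LIF. The PD0325901 arrays differed from each other by less than the bead error of their difference (0.23). Even the highest of these signals lay at percentile 67.3 of all probes on its array. The other Myc probe, ILMN_1231123, was not detected on any array, with detection p-values between 0.831 and 0.994, and says nothing about a difference.

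Beside LIF, Myc was 1.34-fold higher with FGF2 than with PD0325901 (log2 difference 0.42, bead error 0.23). Beside the JAK inhibitor it was at least 1.68-fold higher with FGF2, a bound set by the detection limit of the PD0325901 array (normalized log2 difference 0.94, bead error 0.20). The mean over both backgrounds was 0.68 ± 0.18 (SE). Such means take undetected arrays at their measured values, here and for the other genes and the list medians, and are then no bounds. It lay at percentile 99.0 of 8341 genes, and it did not pass the test (additive limma fit, unadjusted p = 0.00522, adjusted p = 0.245). Only 0.24% of all genes passed. This fit takes both factors as additive and leaves each gene 1 residual degree of freedom, the departure from additivity. The error behind its p-values and SE is therefore drawn mostly from all genes together (prior of 7.01 degrees of freedom). Both reflect only how these 4 arrays scatter around the fit. The direction was the same under the 10 alternatives that kept Myc, with means between 0.24 and 1.37. Those that changed only the detection filter, the choice of probe or the intensity trend left the mean at 0.68, so they could not alter its direction. Myc passed under the alternatives of median scaling (0.78, adjusted p = 0.00789) and no normalization between arrays (0.86, adjusted p = 0.01). Under those settings the median of all genes shifted to 0.20 and 0.28.

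For the JAK inhibitor against LIF, Myc had no common direction. With FGF2 it was 1.24-fold higher with the inhibitor (log2 difference 0.32, bead error 0.19). With PD0325901 the normalized log2 difference was −0.20 with a bead error of 0.23, and the detection limit allowed a bound of at least 1.01-fold lower. The mean was 0.06 ± 0.18 (SE; additive limma fit, adjusted p = 0.928), in a test that called 0.288% of all genes. Socs3 and Stat3 on the same arrays were past that test by the values given above.

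The order of the 4 raw Myc intensities was also the order of overall brightness. The median signal of all probes was 92.8 with FGF2 and the JAK inhibitor, 88.4 with FGF2 and LIF, 82.0 in PD0325901 and the JAK inhibitor, and 86.9 with PD0325901 and LIF. After normalization these medians are equal by construction and the Myc order was as before. Fibroblast markers, of which 6 of 9 were detected, had a summed normalized signal of 2776 with FGF2 and the JAK inhibitor, 3665 with FGF2 and LIF, 3992 in PD0325901 and the JAK inhibitor and 4753 with PD0325901 and LIF. Col1a2, Col3a1 and Postn were not detected on any array. The part of array brightness and of other cells in the Myc values was not tested, and in bulk RNA fewer cells of a type and less RNA per cell cannot be told apart.

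**Figure D1:**
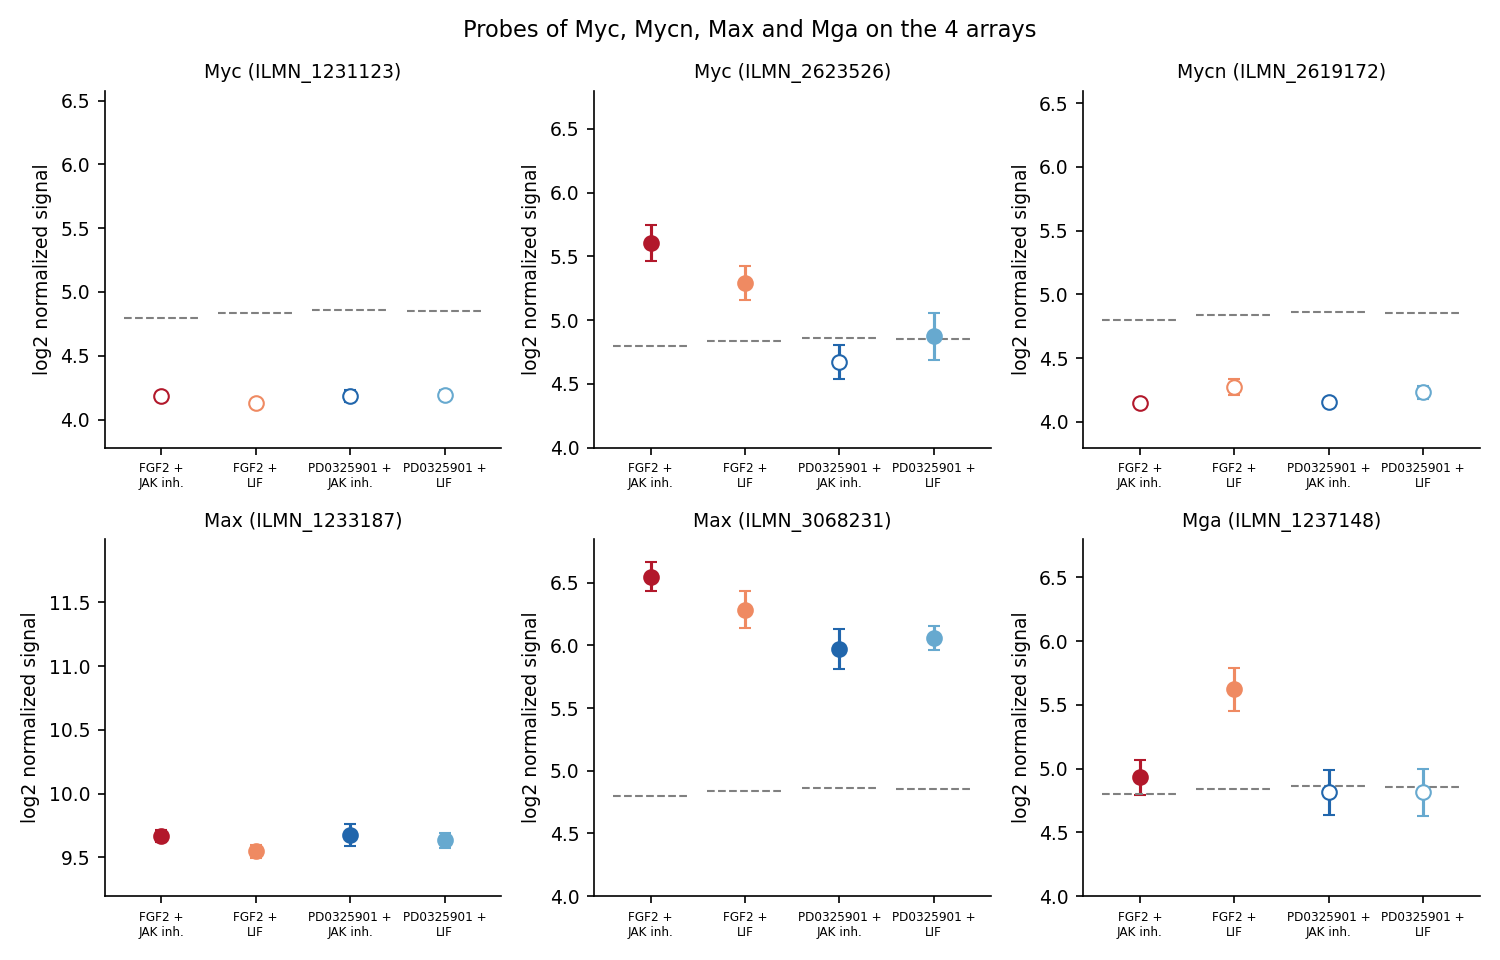
Normalized log2 signal of each of the 6 probes (vertical axis, one panel per probe) on the 4 arrays (horizontal axis). Filled points were detected and open points were not, bars are the bead error of 1 array, and dashed lines mark the lowest detected signal of each array. The detected Myc probe is above the line with FGF2, just above it with PD0325901 and LIF, and under it with PD0325901 and the JAK inhibitor. The brighter Max probe stays between 9.55 and 9.68, and Mga stands out at 5.62 with FGF2 and LIF.

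Mycn, the family member known from embryonic and neural tissue, had 1 probe (ILMN_2619172). Its intensity was 76.9 ± 2.18 with FGF2 and the JAK inhibitor, 81.6 ± 2.42 with FGF2 and LIF, 69.7 ± 2.59 in PD0325901 and the JAK inhibitor and 79.0 ± 2.21 with PD0325901 and LIF. These signals were below the median probe of their arrays, and the detection p-values ran from 0.470 to 0.981. Mycn was therefore not detected by this probe in any condition, no fold was taken, and the gene entered no test. The values give no upper limit for the transcript, since an unresponsive probe would read alike.

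Max, the obligate partner of MYC, MYCN and MGA, was detected on every array by both of its probes. The brighter, ILMN_1233187, read 1044 ± 31.7 with FGF2 and the JAK inhibitor, 847.2 ± 27.0 with FGF2 and LIF, 757.5 ± 38.7 in PD0325901 and the JAK inhibitor and 812.2 ± 33.1 with PD0325901 and LIF. After normalization these became log2 levels of 9.67, 9.55, 9.68 and 9.63 in the same order, with a range of 0.13. The arrays lay close together and the factor groups overlapped. The mean difference was −0.05 ± 0.15 for FGF2 against PD0325901 (SE; additive limma fit, adjusted p = 0.926) and 0.08 ± 0.15 for the JAK inhibitor against LIF (adjusted p = 0.875). The sign of the first depended on scaling and probe, being 0.19 with median scaling, 0.27 without normalization and 0.18 with the mean of both probes, where the median of all genes was 0.20 with median scaling and 0.28 without normalization.

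The dimmer Max probe, ILMN_3068231, read 180.6 ± 9.25 with FGF2 and the JAK inhibitor, 146.3 ± 8.13 with FGF2 and LIF, 116.7 ± 5.96 in PD0325901 and the JAK inhibitor and 126.3 ± 4.08 with PD0325901 and LIF. Its log2 levels were 6.55, 6.29, 5.97 and 6.06 in that order, so both FGF2 arrays were above both PD0325901 arrays, and the 4 arrays ranked as for Myc. With FGF2 it was 1.17-fold higher beside LIF (log2 difference 0.22, bead error 0.17) and 1.49-fold higher beside the JAK inhibitor (0.58, bead error 0.20). The mean of 0.40 ± 0.17 did not pass when this probe stood for Max (SE; additive limma fit, adjusted p = 0.421), a check added after the values were seen. The probes of Max thus gave different readings of FGF2, and the annotation pairs both with the same RefSeq transcript.

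The promoter of Max is shown because it holds the network's own E-box. RefSeq promoter windows (GRCm38.p6, 250 bases before to 50 after the annotated start) were given for 3 of the 4 genes, Mycn, Max and Mga. In the Max window, chr12:76962199-76962498 on the minus strand, 1 CACGTG, in capitals, lies across the start.
Max: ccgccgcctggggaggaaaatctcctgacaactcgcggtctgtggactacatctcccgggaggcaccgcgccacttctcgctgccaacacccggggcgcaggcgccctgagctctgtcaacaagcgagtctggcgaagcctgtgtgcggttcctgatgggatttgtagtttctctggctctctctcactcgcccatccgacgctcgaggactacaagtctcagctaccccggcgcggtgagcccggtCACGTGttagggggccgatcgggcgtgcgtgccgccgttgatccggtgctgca
CACGTG reads the same on both strands. The other motifs searched on both strands were CACATG, a variant E-box, and TTCNNNGAA, the palindrome bound by STAT factors, and the Max window has 0 of each. Over all 32851 windows, 7.15% hold CACGTG, 14.2% hold CACATG and 8.3% hold TTCNNNGAA. A match is a match of letters, not a bound site.

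Mga, the T-box partner of MAX, had 1 probe (ILMN_1237148) near the limit of detection. Its intensity was 102.5 ± 3.63 with FGF2 and the JAK inhibitor, 116.3 ± 6.06 with FGF2 and LIF, 86.8 ± 2.99 in PD0325901 and the JAK inhibitor and 91.9 ± 3.38 with PD0325901 and LIF. FGF2 with LIF stood alone at the top, and it was the array with the lowest detection p of 0. The probe was detected with FGF2 and the JAK inhibitor too (detection p-value of 0.00376). It missed the threshold with PD0325901 and the JAK inhibitor (0.0138) and, barely, with PD0325901 and LIF (0.01003). The log2 levels were 4.93 ± 0.13, 5.62 ± 0.17, 4.81 ± 0.18 and 4.81 ± 0.19 in the order of the intensities.

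With FGF2 in place of PD0325901, Mga was at least 1.71-fold higher beside LIF (normalized log2 difference 0.81, bead error 0.25) and at least 1.05-fold higher beside the JAK inhibitor (0.12, bead error 0.22). The mean of 0.46 ± 0.20 did not pass (SE; additive limma fit, unadjusted p = 0.0460, adjusted p = 0.426). With FGF2, Mga was 1.62-fold lower with the JAK inhibitor than with LIF (log2 difference −0.69, bead error 0.21). With PD0325901 it was not detected on either side and no fold was taken. The mean for the JAK inhibitor was −0.35 ± 0.20 (adjusted p = 0.565). The departure from additivity was −0.69 for Mga, against 0.52 for Myc and 0.08 for Max, and with 1 array per condition it has no test. The Mga window, chr2:119896978-119897277 on the plus strand, is printed for comparison with that of Max. Like the Mycn window it has 0 matches to CACGTG, 0 to CACATG and 0 to TTCNNNGAA.
Mga: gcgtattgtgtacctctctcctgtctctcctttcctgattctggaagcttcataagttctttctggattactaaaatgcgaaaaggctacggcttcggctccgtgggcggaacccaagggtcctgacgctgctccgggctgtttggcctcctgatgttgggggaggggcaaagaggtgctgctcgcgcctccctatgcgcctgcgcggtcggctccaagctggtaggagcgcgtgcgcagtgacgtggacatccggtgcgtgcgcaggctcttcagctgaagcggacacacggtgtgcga

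In counts, 0 of the 3 genes with a detected probe passed the additive limma fit for FGF2 (0.24% of all genes did), and 2 of the 3, Myc and Mga, had an unadjusted p below 0.05, as had 11.5% of all genes. For the JAK inhibitor 0 of 3 passed (0.288% of all genes) and 0 had an unadjusted p below 0.05 (10.6% of all genes). At 2-fold by the measured values, 0 of the 3 differed between FGF2 and PD0325901 beside LIF (1.23% of all genes) or beside the JAK inhibitor (0.396%). Likewise 0 of the 3 differed at 2-fold between the JAK inhibitor and LIF with PD0325901 (0.827%) or with FGF2 (0.54%). Where a PD0325901 array did not detect the probe, these counts set no upper limit. Myc beside the JAK inhibitor was at least 1.68-fold higher with FGF2, and Mga beside LIF at least 1.71-fold. With both switches at once, FGF2 and the JAK inhibitor against PD0325901 and LIF, the differences were 0.74 for Myc, 0.03 for Max and 0.12 for Mga, and 0 of 3 reached 2-fold (1.76% of all genes). At 1.5-fold the same way beside LIF and beside the JAK inhibitor, 0 of 3 differed for FGF2 (1.27% of all genes), and 0 of 3 did so for the JAK inhibitor in its 2 backgrounds (1.08%). For the departure from additivity the count at 2-fold was 0 of 3 (1.52% of all genes). The middle 90% of all genes lay between −0.39 and 0.42 for the mean FGF2 difference, and between −0.40 and 0.40 for the JAK inhibitor.

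**Figure D2:**
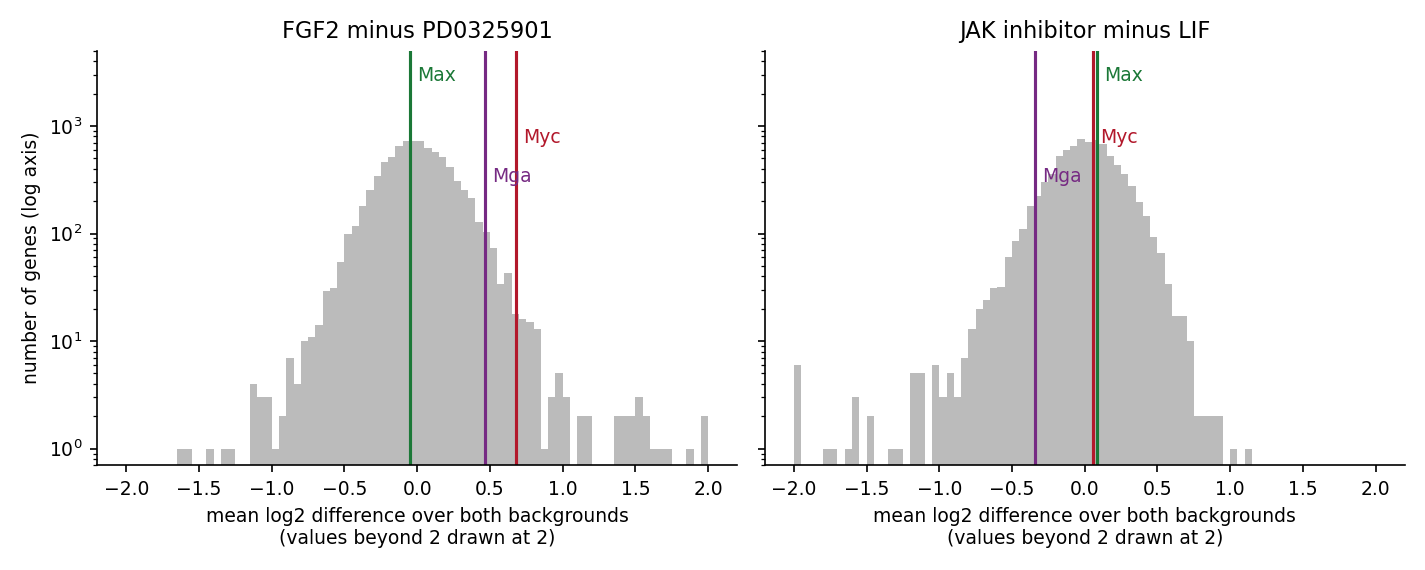
Mean log2 differences over both backgrounds for 8341 genes (grey bars, number of genes on a log axis), FGF2 minus PD0325901 on the left and JAK inhibitor minus LIF on the right. Coloured lines mark Myc, Max and Mga: for FGF2 at 0.68, −0.05 and 0.46, and for the JAK inhibitor at 0.06, 0.08 and −0.35.

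The authors' own processed values ranked the arrays as the normalized levels above did for the detected Myc probe and for both Max probes. In the authors' deposited table Myc (ILMN_2623526) had 34 with FGF2 and the JAK inhibitor, 23 with FGF2 and LIF, 9 in PD0325901 and the JAK inhibitor and 13 with PD0325901 and LIF. For Mga the authors' deposited table gave 14, 34, 12 and 12 in the same order, so Mga again stood out with FGF2 and LIF. The brighter Max probe had 808, 738, 814 and 786 in the authors' deposited table and the dimmer 79, 63, 48 and 52. The silent Myc probe and the Mycn probe had no value there.

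**Figure D3:**
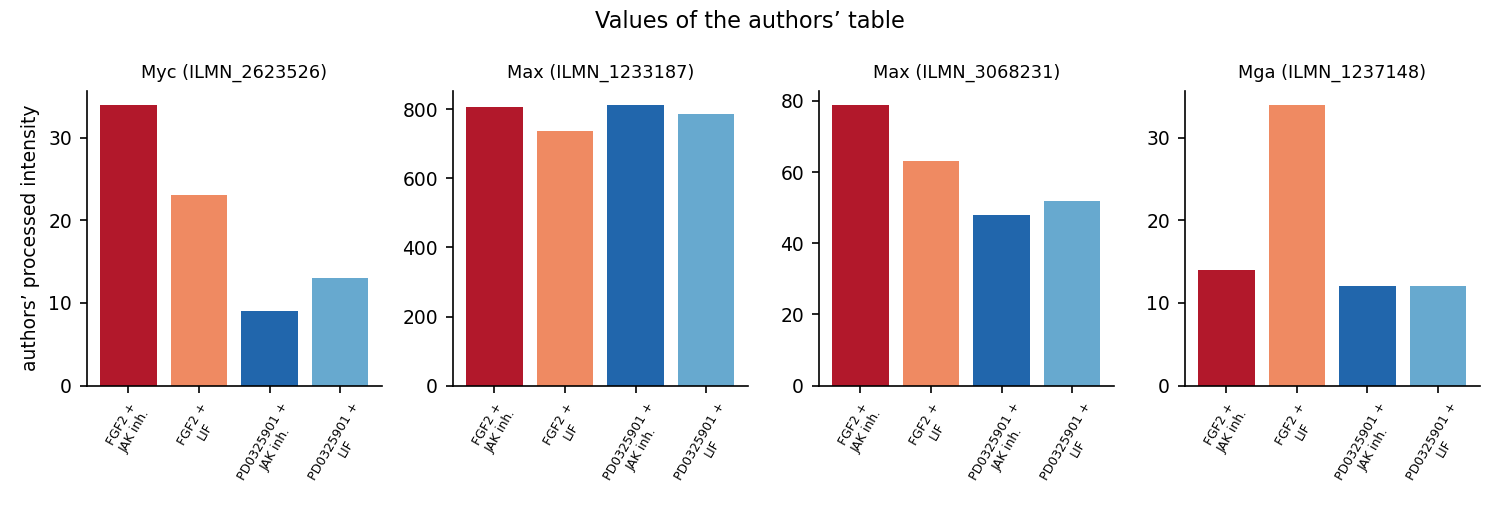
Intensities of the authors' deposited table (vertical axes from 0, a scale of its own in each panel) for the 4 probes that have values, on the 4 arrays. The Myc bars are 34 and 23 with FGF2 and 9 and 13 with PD0325901, Mga reaches 34 with FGF2 and LIF only, and the brighter Max probe stays between 738 and 814.

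The other genes of the network were read from 9 lists holding 144 genes, of which 112 had a detected probe. Across the 9 lists, 0 genes passed the additive limma fit for FGF2 (0.24% of all genes did) or for the JAK inhibitor (0.288%). Among the other partners and antagonists around MAX, 7 of 9 were detected on at least 1 array, and Mxd1 and Mlxip were not. Only 1 of the 7 was detected on all 4 arrays, and Mxd4, Mxi1 and Mnt were detected on 1 array each. Of the 7, 2 had an unadjusted p below 0.05 for FGF2, as had 11.5% of all genes, both being lower. One was Mxd3, a competitor of MYC for MAX. Its log2 levels were 4.20 with FGF2 and the JAK inhibitor, 4.72 with FGF2 and LIF, 4.89 in PD0325901 and the JAK inhibitor and 5.32 with PD0325901 and LIF, and it was detected only with PD0325901. With FGF2 it was at least 1.39-fold lower beside LIF and at least 1.06-fold lower beside the JAK inhibitor, and the measured values did not pass the test (adjusted p = 0.223). The JAK inhibitor was compared with LIF in the PD0325901 arrays only, where Mxd3 was 1.35-fold lower with the inhibitor. The other was Mycl, another gene of the MYC family, named after its values were seen, with levels of 5.88 and 5.84 in the FGF2 arrays against 6.30 and 6.24 in the PD0325901 arrays (JAK inhibitor before LIF in each pair). Its mean for FGF2 was −0.41 ± 0.15 (adjusted p = 0.393), with differences of −0.40 beside LIF and −0.41 beside the JAK inhibitor, and its JAK inhibitor mean was 0.05.

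Among genes for the MYC cofactors, 17 of 20 were detected, with a median log2 difference of 0.01 for FGF2 and −0.04 for the JAK inhibitor, where all genes had −0.01 and 0.01. The brightest were Ruvbl2 (0.01 for FGF2, −0.10 for the JAK inhibitor) and Ruvbl1 (0.26 and −0.15), ATPases of chromatin complexes that MYC recruits. Bin1, a MYC-interacting adaptor picked after its values were seen, stood at 0.61 for FGF2 (adjusted p = 0.24). Of the genes that control turnover of the MYC protein, 11 of 13 were detected, with medians of 0.11 for FGF2 and 0.07 for the JAK inhibitor. The brightest, the kinase Aurka and the deubiquitinase Usp22, stood at −0.22 and 0.05 for FGF2 and at −0.03 and 0.52 for the JAK inhibitor. Fbxw7, the ubiquitin ligase receptor that reads the GSK3 mark on MYC, was named after the fact and stood at 0.49 for FGF2 (adjusted p = 0.326). Of the PRC1.6 partners of MGA, 9 of 11 were detected. Of these 9, 0 had an unadjusted p below 0.05 for FGF2 (11.5% of all genes had one) or for the JAK inhibitor (10.6%). Hdac2 and Tfdp1, the brightest, stood at −0.08 and −0.13 for FGF2 and at 0.12 and −0.02 for the JAK inhibitor. E2f6 and Pcgf6, which help bring the complex to DNA, stood at 0.24 and 0.16 for FGF2.

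Germ cell genes that MAX, MGA and PRC1.6 repress in mouse ES cells were detected for 8 of 16. Ddx4, Sycp3, Mael, Tdrkh, Slc25a31, Hormad1 and Tex101 were not detected on any array. The median was −0.07 for FGF2, with 3 of 8 higher (49% of all genes were). It was 0.09 for the JAK inhibitor, with 6 of 8 higher (51.9% of all genes). Sycp1, Stra8 and Tdrd1 were detected on 1 array each, so their signs rest partly on undetected values. The RNA-binding protein gene Dazl, the brightest, had log2 levels of 9.48 with FGF2 and the JAK inhibitor, 9.22 with FGF2 and LIF, 9.49 in PD0325901 and the JAK inhibitor and 9.63 with PD0325901 and LIF. Its means were −0.21 for FGF2 and 0.06 for the JAK inhibitor, and those of Taf7l, a testis TFIID subunit gene, were −0.02 and 0.28 (adjusted p = 0.548 for the last, additive limma fit). In their promoter windows CACGTG was found for 9 of the 16 germ cell genes (56.2%), against 8.09% of 27025 genes with a window. It was found for 4 of 9 MAX partners and antagonists (Mxd4, Mnt, Mlx and Mlxipl), 2 of 17 cofactors, 0 of 10 turnover genes and 1 of 8 PRC1.6 partners. Among MYC targets it was found for 4 of 21 of ribosome biogenesis, 9 of 22 of metabolism and translation and 2 of 10 of the cell cycle, and among genes repressed by MYC for 1 of 5. CACATG was found for 2 of the 16 germ cell genes and 4 of 8 PRC1.6 partners, against 15.9% of all genes with a window, and for the other lists in 0% to 20% of genes.

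Known MYC targets had small positive medians for FGF2, above the median of all genes under every scaling tried. This was not particular to MYC targets. The medians of the turnover genes (0.11), PRC1.6 partners (0.11), MYC cofactors (0.01) and ES cell markers (0.05) were also above it under every scaling. In ribosome biogenesis, 17 of 19 detected genes were higher with FGF2 (89.5%, against 49% of all genes), with a median of 0.17. By background the median was 0.17 beside LIF and 0.20 beside the JAK inhibitor. Of the 19, 3 (all higher) had an unadjusted p below 0.05, against 11.5% of all genes in either direction. Tcof1, which encodes the nucleolar protein treacle needed for ribosomal RNA transcription, had levels of 9.21 with FGF2 and the JAK inhibitor, 9.56 with FGF2 and LIF, 8.37 in PD0325901 and the JAK inhibitor and 8.38 with PD0325901 and LIF. Its mean for FGF2 was 1.01 ± 0.16 and missed the test (additive limma fit, adjusted p = 0.0814). Npm1 and Ncl, abundant nucleolar proteins, stood at −0.04 and 0.11. For the JAK inhibitor the ribosome biogenesis median was 0.03, with 10 of 19 higher.

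Of the MYC targets in metabolism and translation, 22 of 26 were detected, with a median of 0.04 for FGF2 and −0.002 for the JAK inhibitor. Odc1, the ornithine decarboxylase of polyamine synthesis and a classical MYC target, stood at 0.16 for FGF2 and 0.12 for the JAK inhibitor. Mthfd2, a mitochondrial folate enzyme, was higher with the JAK inhibitor by 0.62 with PD0325901 and by 0.79 with FGF2 (mean 0.70 ± 0.16, adjusted p = 0.228). Of the cell cycle targets, 10 of 13 were detected and 9 of 10 were higher with FGF2 (49% of all genes were). Their median was 0.16 for FGF2 and 0.05 for the JAK inhibitor. The replication helicase genes Mcm5 and Mcm4, the brightest, stood at 0.08 and 0.10 for FGF2. The 3 with an unadjusted p below 0.05 (11.5% of all genes had one), named after their values were seen, were E2f2 at 0.84, the cyclin gene Ccne1 at 0.64 and the phosphatase gene Cdc25a at 0.58 (adjusted p = 0.242, 0.29 and 0.275).

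Of 9 genes that MYC is known to repress, all were detected on at least 1 array. With FGF2, 2 of 9 were higher (49% of all genes were), and the median was −0.04 for FGF2 and −0.08 for the JAK inhibitor. Gata6, a primitive endoderm factor repressed by MYC in ES cells, had levels of 5.89 with FGF2 and the JAK inhibitor, 6.55 with FGF2 and LIF, 5.20 in PD0325901 and the JAK inhibitor and 5.75 with PD0325901 and LIF. Its mean was 0.75 ± 0.15 for FGF2 (adjusted p = 0.152) and −0.60 for the JAK inhibitor (adjusted p = 0.274). The cyclin-dependent kinase inhibitor gene Cdkn1a stood at −0.26 for FGF2 and −0.43 for the JAK inhibitor. Over all genes analysed, the 817 with CACGTG in their window had a median FGF2 difference of 0.01 and the 5991 without it −0.01. Among target genes of the 3 MYC target lists, the medians were 0.06 with the motif (10 genes) and 0.10 without it (29 genes).

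**Figure D4:**
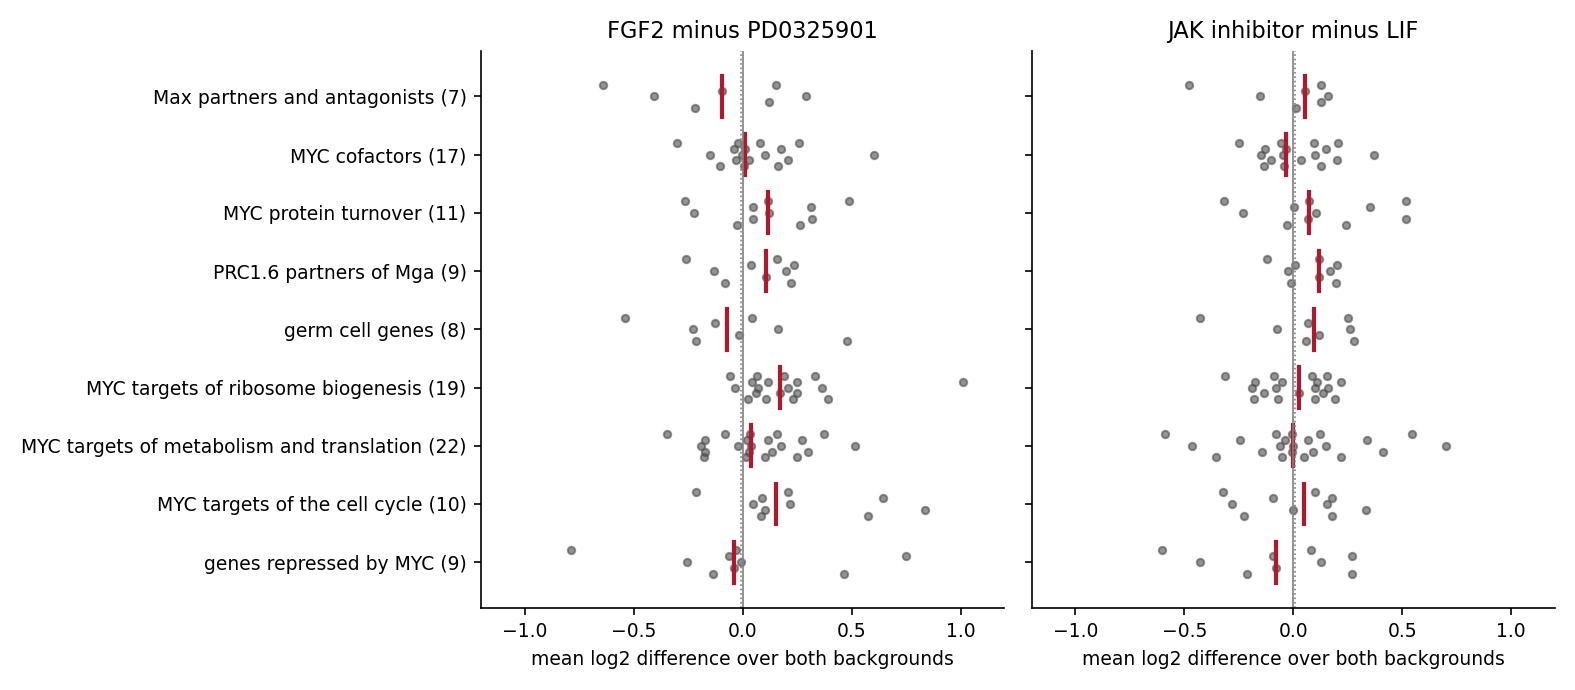
Mean log2 difference over both backgrounds of each detected gene (grey points) in the 9 network lists (rows, with the number of genes), FGF2 minus PD0325901 on the left and JAK inhibitor minus LIF on the right. Red bars are list medians and the dotted line is the median of all genes; for FGF2 the ribosome biogenesis and cell cycle targets have medians of 0.17 and 0.16, and for the JAK inhibitor the medians lie between −0.08 and 0.12.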

How the data were processed

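Total RNA of 4 cultures, 1 per condition, was amplified from 400 ng over 12 h of in vitro transcription and labelled with Cy-3, per the labels' protocols. The submitters' processing notes name BeadStudio, with no version. Per the file headers the deposited tables hold a mean bead intensity, its bead standard error and a detection p-value for each probe. The signals were read as neither background-subtracted nor normalized, since their lowest values were 64.4 to 71.2 and their medians differed. The authors' value table holds whole-number intensities with equal medians (71) over the probes that have a value; the sources used here do not say how it was made.

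Signals were corrected with the limma function nec (limma 3.58.1, R 4.3.3; offset 16), taken to log2 and quantile-normalized. Probes took the symbol of the platform annotation, updated through the RefSeq table (23978 of 25697 probes with 1 symbol, 1719 with none). For each gene the brightest probe among those detected (p below 0.01) on at least 1 array was used, which gave 8341 of 16593 genes. Differences within a background have no test. Means over backgrounds were tested with an additive limma fit (lmFit, eBayes, two-sided, Benjamini-Hochberg over all 8341 genes, threshold 0.05). Its prior had 7.01 degrees of freedom. Where 1 side was not detected, folds were bounded by that array's lowest detected signal. The genes, lists, tests and alternatives were chosen with earlier results of these data known. Named list genes were those past the test or with both backgrounds of a factor agreeing at 1.5-fold, otherwise the 2 brightest of a list; all other list genes named were chosen after their values were seen. The rule to name genes of like pattern looked only at the brightest detected probe of a gene. It needed detection on all 4 arrays and a range of 0.5, which no such probe of the 4 genes met. With 1 array per condition there is no replicate spread, and the number of arrays limits the precision.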

Additional observations from a re-analysis of the deposited data

Results flagged for a closer look

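The difference between the JAK inhibitor and LIF had formally opposite signs in the 2 backgrounds for Myc and Mga. For Myc the log2 difference was 0.32 with FGF2 and −0.20 with PD0325901, so the backgrounds differed by 0.52. The −0.20 was within its bead error of 0.23, and the array with PD0325901 and the JAK inhibitor did not detect the probe. For Mga it was −0.69 with FGF2 and 0.00 with PD0325901, where it was not detected on either array, and the backgrounds differed by −0.69. With 1 array per condition neither difference was tested.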

How the results depend on the processing

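Direction was the same for Myc (10 alternatives) and Mga (10) for FGF2 and for Max (12) for the JAK inhibitor. The alternatives of detection filter and intensity trend left these values unchanged, as did the mean of the detected probes for Myc and Mga. Those alternatives could not alter the direction. For FGF2, Max was reversed with median scaling (0.1932), without normalization between arrays (0.274), with the mean of the detected probes (0.1767) and with the dimmer probe (0.4012, added after seeing the data). With median scaling and without normalization, 1 of the 3 genes passed for FGF2, which was Myc, against 0 here; 0 passed for the JAK inhibitor under any alternative. At 1.5-fold in place of 2-fold, 1 gene was counted beside LIF and 1 beside the JAK inhibitor for FGF2, 1 with FGF2 for the JAK inhibitor, and 1 for the departure. With the authors' value table, floored at 16 or at its lowest positive value, the same counts were 1, 1 and 1, and the departure count was 1 at the floor of 16 and 2 at the lowest value; with median scaling and without normalization 1 gene reached 2-fold for FGF2 beside the JAK inhibitor. The cause was not tested. No share of all genes is given for these 1.5-fold and 2-fold counts, so they are not read as a trait of these genes.

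Genes called over the whole array varied widely. For FGF2 there were 20 (17 higher, 3 lower), against 438 with median scaling (400 higher, 38 lower), 444 without normalization (424 higher, 20 lower), 400 if the background was not corrected, 335 with normexp, 0 without a detection filter, 60 with detection on all arrays, 66 at a detection p of 0.05, 360 with an intensity trend and 0 with both forms of the authors' table. For the JAK inhibitor there were 24, against 94, 49, 346, 280, 8, 47, 45, 296 and 0 in the same order. The list counts of 0 also depend on this. With an intensity trend, 216 of 8341 genes were called higher and 144 lower for FGF2. Of the targets, 4 of 19 in ribosome biogenesis, 3 of 10 in the cell cycle and 2 of 22 in metabolism passed as higher. So did 1 of 17 MYC cofactors and 1 of 11 turnover genes. Of the 9 genes repressed by MYC, 2 passed as higher and 1 as lower. For the JAK inhibitor (118 higher, 178 lower) 2 metabolism targets and 1 turnover gene passed as higher. Those passing as lower were 4 metabolism targets, 1 ribosome biogenesis target and 1 gene repressed by MYC. Detection on all arrays removed Myc and Mga. Leaving out an array leaves no error, so no such fit was made. No paired analysis was possible because each condition has 1 array. Signals near background limit Myc, Mycn and Mga.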

Other observations

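Values of 5 further network genes, named after their values were seen, are folds or log2 differences without a test within a background, or mean log2 differences over both backgrounds. Ccnd2, a D-type cyclin gene, was at least 1.67-fold higher with FGF2 than with PD0325901 beside the JAK inhibitor, where the PD0325901 array did not detect it, and 1.41-fold lower with FGF2 beside LIF. Huwe1, a ubiquitin ligase that acts on MYC proteins, was higher with the JAK inhibitor by 0.85 with PD0325901 and by 0.19 with FGF2. Ndrg1, a gene repressed by MYC, stood at −1.14 for FGF2 beside LIF and at −0.43 beside the JAK inhibitor. Slc7a5, the amino acid transporter gene and a MYC target, stood at 0.52 for FGF2 and 0.54 for the JAK inhibitor. Ldha, the lactate dehydrogenase gene, stood at −0.59 for the JAK inhibitor and 0.01 for FGF2. None of these passed the additive limma fit over all genes, with adjusted p-values from 0.236 to 0.981 for FGF2 and from 0.341 to 0.9997 for the JAK inhibitor.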
